A study of Mus musculus with 4 samples.

Results

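The genes described are 39 interferon-stimulated genes of the mouse, among them the Ifit, Oas, Gbp, Irg and Mx families, and the data are the H3K4me3 HiChIP interactions at their promoters. The rule that assigns interactions to them uses gene names and positions, and none of the listed values. An interaction was taken where either of its 5-kb bins held, or lay within 2500 bp of, the start (TSS) of a protein-coding transcript of a member gene. Of the 39 genes, 38 had such a TSS in the annotation used, and Mx2, which has no protein-coding transcript there, was not analysed here. Their promoters had 232 of the 237102 interactions listed, in 105 clusters, and 182854 interactions lay at the promoter of any protein-coding gene.

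The cells were macrophages (BMDMs) that C57BL/6J bone marrow formed over 7 days in M-CSF. Of the 4 samples, 2 had received 20 ng/mL of interleukin-4 (IL-4), a cytokine of alternative macrophage activation, for 24 h and 2 were in the basal condition. None of the labels names an interferon treatment. HiChIP joins DNA ends that lie close together in the nucleus and keeps the fragments that carry a chosen mark, here H3K4me3, a histone mark of active promoters. The list was called by the authors on the reads of all 4 samples together, so it has no separate value for IL-4 and basal BMDMs. No difference between them could be tested here, and no replicate error can be given. The paper reports its own test on the read counts of each sample. At its limits of FDR and fold change, no interaction differed significantly between IL-4 and control.

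For each pair of bins the list gives the observed count of read pairs, the count expected by the authors' model, and a false discovery rate (FDR). All listed pairs had an FDR under 0.01 and an observed count at least 2 times the expected count, and lay 10 to 1000 kb apart. A pair was tested by the authors where at least 1 of its bins held an H3K4me3 peak, so a gene with no interaction is described as listed at 0, which is no measure of its expression. The intervals of counts below are 95% exact Poisson intervals, those of shares are 95% Wilson intervals, and both cover counting error only. The 12 macrophage markers examined all had interactions, with a median of 17 per gene. Markers of other cell types had lower medians but were mostly not at 0, with an interaction at 5 of 5 B cell (median 4), 5 of 5 T cell (median 1), 5 of 6 neutrophil (median 2.5), 4 of 5 dendritic cell (median 4) and 1 of 5 fibroblast markers.

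Interferons are cytokines that cells release on infection. Type I interferon acts through JAK kinases on the transcription factor complex ISGF3, which binds the interferon-stimulated response element (ISRE). Interferon-γ acts through factors that bind the gamma-activated site (GAS). The genes so induced block viral RNA translation, degrade RNA, attack the membranes that surround intracellular microbes, or sense foreign nucleic acid, and in macrophages they form a large part of the response to infection.

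The promoters of the member with the most interactions at each locus whose RefSeq promoter held a match are shown first. A printed window need not lie in the bin that was joined to others. The windows of Gbp5, Oas3 and Ddx58 lay in bins with 2 of 15, 4 of 15 and 1 of 16 of their interactions. The window of Ifit2 lay in a bin with 0. The windows come from the RefSeq promoters of GRCm38.p6, run 5′ to 3′ on the strand of the gene, and cover 250 bases before the gene start and 50 after it, or a stretch of 100 bases of that window. Capitals mark every match to an ISRE, searched as GAAA, any 2 bases and GAAA again on either strand, and to a GAS, searched as TTCNNNGAA on both strands, and matches may overlap. Oas1a and Gbp2 are added because they were joined to Oas3 and Gbp5, Isg15 because it held the most ISRE matches, and Rsad2 because it held a match and was listed at 0. These are, in order, chr11:48871371-48871670 on the minus strand, chr3:142496684-142496983 and chr3:142620413-142620712 on the plus strand, chr5:120777610-120777909 and chr5:120907476-120907775 on the minus strand, chr4:156200836-156200935 and chr4:40239776-40239875 on the minus strand, chr11:101448362-101448461 and chr19:34550444-34550543 on the plus strand, and chr12:26456518-26456617 on the minus strand.
Irgm1: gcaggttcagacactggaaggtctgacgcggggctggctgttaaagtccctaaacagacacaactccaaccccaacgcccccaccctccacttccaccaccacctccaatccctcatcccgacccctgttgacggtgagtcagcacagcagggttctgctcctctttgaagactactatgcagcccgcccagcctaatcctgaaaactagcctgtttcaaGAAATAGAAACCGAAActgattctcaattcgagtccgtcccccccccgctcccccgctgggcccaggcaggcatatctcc
Gbp5: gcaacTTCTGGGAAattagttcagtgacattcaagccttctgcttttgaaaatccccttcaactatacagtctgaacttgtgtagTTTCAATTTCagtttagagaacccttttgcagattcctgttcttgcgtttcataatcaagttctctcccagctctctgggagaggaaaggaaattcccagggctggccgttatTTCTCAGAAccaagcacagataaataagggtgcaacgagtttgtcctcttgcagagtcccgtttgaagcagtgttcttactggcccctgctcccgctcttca
Gbp2: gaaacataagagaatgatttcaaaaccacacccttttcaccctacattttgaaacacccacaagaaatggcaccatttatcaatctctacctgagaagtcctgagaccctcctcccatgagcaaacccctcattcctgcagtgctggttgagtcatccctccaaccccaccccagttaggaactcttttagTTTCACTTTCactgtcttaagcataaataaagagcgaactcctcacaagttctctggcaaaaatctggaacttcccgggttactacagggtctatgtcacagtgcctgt
Oas3: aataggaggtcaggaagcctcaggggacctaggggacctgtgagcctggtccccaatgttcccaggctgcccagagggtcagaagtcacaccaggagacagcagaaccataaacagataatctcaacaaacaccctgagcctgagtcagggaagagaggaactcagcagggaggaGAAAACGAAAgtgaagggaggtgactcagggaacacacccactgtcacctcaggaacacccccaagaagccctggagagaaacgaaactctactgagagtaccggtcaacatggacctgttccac
Oas1a: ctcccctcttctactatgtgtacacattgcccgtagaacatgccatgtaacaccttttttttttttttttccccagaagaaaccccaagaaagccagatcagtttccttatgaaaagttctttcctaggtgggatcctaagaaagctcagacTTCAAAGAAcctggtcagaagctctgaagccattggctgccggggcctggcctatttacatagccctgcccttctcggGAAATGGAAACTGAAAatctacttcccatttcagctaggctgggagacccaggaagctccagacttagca
Isg15: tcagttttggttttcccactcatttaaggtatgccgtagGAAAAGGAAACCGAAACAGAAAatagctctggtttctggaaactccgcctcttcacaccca
Ddx58: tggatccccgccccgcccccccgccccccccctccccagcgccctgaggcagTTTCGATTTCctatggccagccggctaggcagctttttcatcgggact
Ifi35: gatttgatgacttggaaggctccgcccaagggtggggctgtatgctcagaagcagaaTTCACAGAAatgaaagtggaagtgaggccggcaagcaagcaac
Ifit2: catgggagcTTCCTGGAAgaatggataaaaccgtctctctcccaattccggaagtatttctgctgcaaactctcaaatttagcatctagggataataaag
Rsad2: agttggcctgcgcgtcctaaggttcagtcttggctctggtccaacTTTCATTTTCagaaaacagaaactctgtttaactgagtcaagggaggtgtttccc

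The ISRE capitals in Irgm1, Oas1a and Isg15 are runs of half-sites, in which 2 or 3 matches overlap, and Oas1a also held 1 GAS. Gbp5 held 1 ISRE and 2 GAS matches and Gbp2 held 1 ISRE. Ddx58 and Oas3 held 1 ISRE each, and the windows of Ifi35 and Ifit2 held a GAS alone. A RefSeq promoter was found for 29 of the 39 genes, of which 17 (58.6%) held an ISRE, against 4.04% of 15680 protein-coding genes. A GAS was found in 12 (41.4%), against 9.05% of all genes. Among members with an interaction 14 of 25 promoters held an ISRE, and among members listed at 0 it was 3 of 4, namely Ifit3, Gbp3 and Rsad2. All 12 GAS promoters belonged to members with an interaction, and none of the 4 promoters of members at 0 held a GAS. A match is a stretch of letters and not a bound site.

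At least 1 interaction was listed for 32 of 38 members (84.2%, interval 69.6 to 92.6%), against 70.4% of 20720 protein-coding genes on the autosomes. The members' promoters nevertheless had few of them. The median was 2 interactions per member (quartiles 1 and 7.75) and 4 per protein-coding gene (quartiles 0 and 17), and among genes with at least 1 interaction the median was 3 in the members and 10 in all genes. The order of the medians turned round, at 2 in the members and 1 in all genes, where bins that served more than 1 gene were left out, a choice made after seeing the data, and both were 1 where ratios of at least 4 were required. Ifi35 with 31, Rtp4 with 27 and Eif2ak2 with 23 were the members with 20 or more, which is 3 of 38 (7.89%), against 22.1% of all genes. Ifit3, Gbp3, Iigp1, Mx1, Rsad2 and Cmpk2 were listed at 0. Members had as many gene neighbours as other genes, with a median of 16.5 protein-coding genes within 500 kb, against 16 for all genes.

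**Figure D1:**
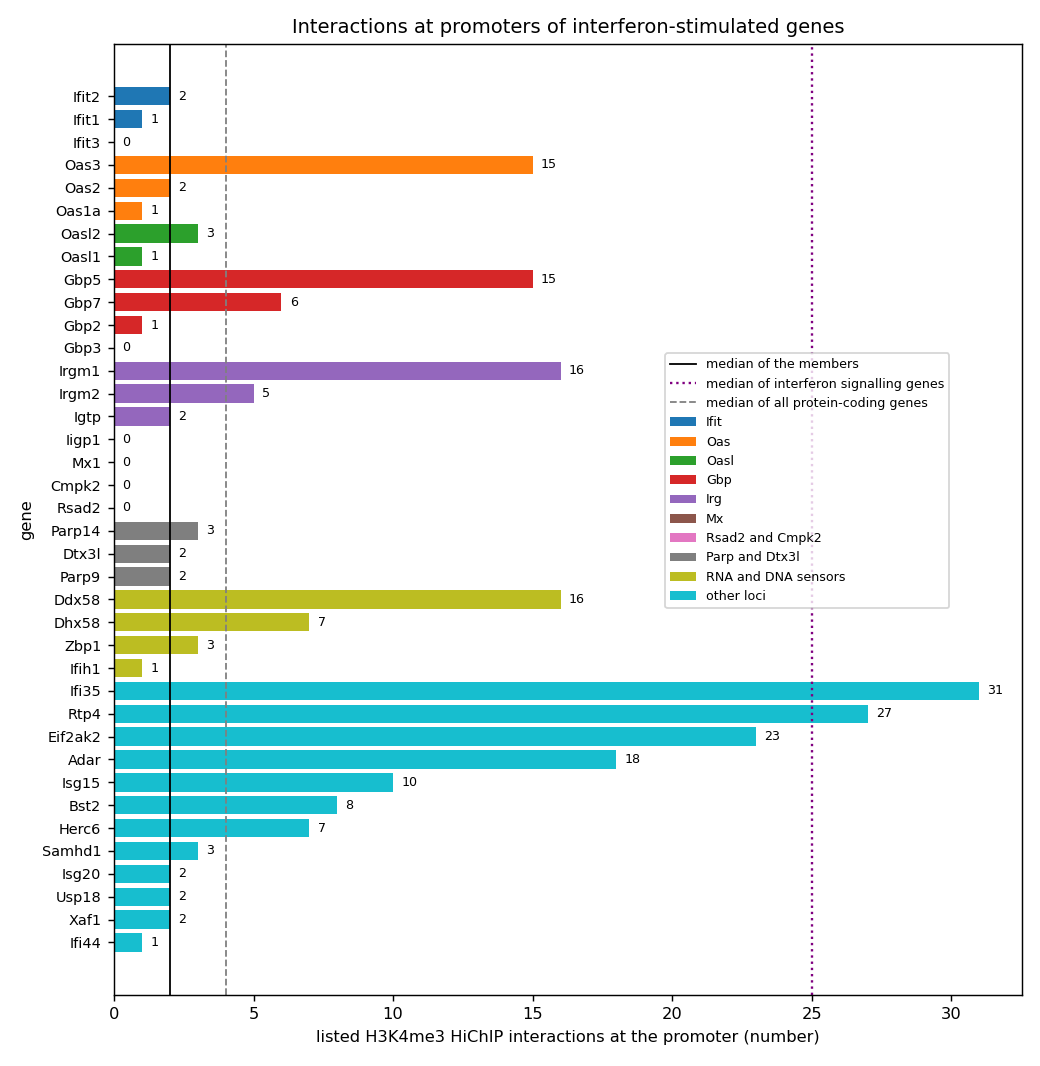
Number of listed H3K4me3 HiChIP interactions (horizontal axis) at the promoter of each of the 38 member genes, coloured by locus, with vertical lines at the median of the members (2), of all protein-coding genes (4) and of the interferon signalling genes (25). In the Oas, Gbp and Irg families 1 gene (Oas3, Gbp5, Irgm1) holds most of the interactions, beside relatives at 0 to 6.

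At the Ifit locus, whose genes encode tetratricopeptide-repeat proteins that bind foreign RNA and block its translation, few interactions were listed. Ifit3 was listed at 0. Ifit1 had 1, with 27 counts (interval 17.8 to 39.3) over 9.65 expected, a ratio of 2.80, to an intergenic bin 200 kb upstream, and its bin chr19:34640001-34645000 also held a TSS of its relative Ifit1bl2. Ifit2 had 2 interactions, both at a bin that neighboured its TSS and did not hold it. Its highest ratio and highest count were those of 21 counts over 3.35 expected (ratio 6.27) to exons of Acta2 and Stambpl1 at chr19:34240001-34245000, 305 kb upstream, and the other joined it to the promoter bin of Acta2, the smooth muscle actin gene, with 15 counts and a ratio of 4.91. No interaction joined a pair of Ifit genes. In the promoter bins of Ifit3, 24.5% of 75-base windows occurred more than once in the genome, where read mapping is uncertain. This share was 3.86% over the bins of all members and 5.67% over those of all genes. In the other members listed at 0 it ran from 0.2% (Rsad2) to 5.7% (Iigp1).

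At the Oas locus, whose genes encode sensors of double-stranded RNA that make the activator of RNase L, Oas3 had 15 interactions, Oas2 had 2 and Oas1a had 1. The highest count at Oas3 was 263 (interval 232 to 297) over 119 expected, a ratio of 2.21, 10 kb into its own gene. From the bin next to its start, chr5:120780001-120785000, Oas3 was joined to the promoter bin of Oas1c 30 kb away with 171 counts over 57.7 expected (ratio 2.96) and to that of Oas1a 125 kb away with 43 counts over 11.1 expected (ratio 3.86, FDR 4.54e-12). This was the sole interaction of Oas1a, at a bin where 23.8% of 75-base windows were repeated in the genome. Other partners lay in exons of Oas1h and Oas1g, with 23 counts each and ratios of 2.98 and 5.59. The highest ratio at Oas3 was 5.75, with 18 counts over 3.13 expected, in an intron of Rph3a 185 kb away. Of the partners, 12 lay upstream, towards the Oas1 genes and Rph3a, and 3 lay downstream. The TSS of Oas3 lay inside the promoter bin in 4 of its 15 interactions, and in the others within 2500 bp of it.

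Oas2 was joined to the promoter of Ptpn11, which encodes the phosphatase SHP2, at 440 kb with 29 counts over 6.52 expected (ratio 4.45), and to an exon of Hectd4 at 580 kb with 22 counts and its highest ratio, 5.56. Nothing joined Oas2 to Oas3, its neighbour. The Oasl genes, whose proteins resemble the Oas enzymes and carry ubiquitin-like domains, had 3 interactions at Oasl2 and 1 at Oasl1. Both were joined to the promoter of 1500011B03Rik, Oasl2 with 65 counts (ratio 2.13) and Oasl1 with 38 (ratio 2.05). Oasl2 had its highest ratio, 5.11, with 57 counts over 11.2 expected, at an intergenic bin 200 kb upstream, and was also joined to the promoter of Pxn, the gene of the focal adhesion protein paxillin, at 605 kb with 19 counts (ratio 3.87). In the promoter bin of Oasl2 with these 3 interactions 5.20% of 75-base windows were repeated in the genome, and in its other bin, which had none, 89.4% were.

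The Gbp genes encode guanylate-binding GTPases that attack vacuoles of intracellular bacteria and parasites. Gbp5 had 15 interactions, Gbp7 had 6, Gbp2 had 1 and Gbp3 was listed at 0. Of the partners, 14 of the 15 of Gbp5 and 5 of the 6 of Gbp7 lay downstream, across the cluster towards Gbp2 and beyond it. The highest count and ratio at Gbp5 were those of 61 counts (interval 46.7 to 78.4) over 7.73 expected, a ratio of 7.89, at the intergenic bin chr3:142640001-142645000, 150 kb away. Gbp5 was joined to the promoter bin of Gbp2, chr3:142620001-142625000, with 45 counts over 9.52 expected (ratio 4.73, FDR 1.31e-15), and this was the sole interaction of Gbp2. Exons of Gbp2 followed with 42 counts (ratio 7.16) and 31 counts (ratio 4.49), and an exon of Gbp2b with 39 counts (ratio 5.89). The promoters of Kyat3 and of Gtf2b, the gene of the general transcription factor TFIIB, lay 205 to 275 kb away and had ratios of 2.10 to 3.50.

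Gbp7 shared that downstream region. Its highest ratio was 8.53, with 17 counts (interval 9.90 to 27.2) over 1.99 expected, at the intergenic bin chr3:142650001-142655000, 125 kb away, and its highest count was 36 over 16.7 expected at an exon of Gbp2. The intergenic bin with the highest count of Gbp5 was also listed for Gbp7, with 20 counts and a ratio of 3.45. The exception on the other side was the promoter of Bmpr1b, a receptor of bone morphogenetic proteins, 360 kb upstream with 12 counts and a ratio of 4.24. In 2 of the 15 interactions of Gbp5 and 2 of the 6 of Gbp7 the TSS lay inside the promoter bin.

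The Irg genes encode immunity-related GTPases, of which Irgm1, Irgm2 and Igtp regulate the others. Irgm1 had 16 interactions and held the highest ratio of all members. Its bin chr11:48870001-48875000 was joined to chr11:49080001-49085000, 210 kb away, with 215 counts (interval 187 to 246) over 12.0 expected, a ratio of 17.9 with an FDR of 1.18e-180, and this was also its highest count. The partner bin holds promoters of Ifi47, another member of the Irg family, and of the olfactory receptor gene Olfr56. The neighbouring bin of Ifi47 had 129 counts over 15.8 expected (ratio 8.14), an intron of Olfr56 80 counts over 10.3 (ratio 7.75), and the second bin of Irgm1 was joined to the same bins of Ifi47 with 52 counts (ratio 6.11) and 45 counts (ratio 4.02). The RefSeq promoter of Ifi47, chr11:49076337-49076636, lay in the bin with 129 counts and not in that with 215, and held neither motif.

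The remaining partners of Irgm1 had ratios of 2.03 to 4.77. The promoters of Rack1, a ribosomal scaffold gene, and Trim41 lay downstream with 160 and 127 counts and ratios of 2.03 and 2.13, close to the limit of the list. The promoter of Mgat1 was joined with 30 to 61 counts and ratios of 2.06 to 3.32, and that of Zfp62 with 37 counts and a ratio of 4.77. Irgm2 had 5 interactions, Igtp had 2 and Iigp1 was listed at 0. Both interactions of Igtp, to the promoters of Zfp672 (41 counts, ratio 2.36) and Trim17 (12 counts at 760 kb, ratio 3.26), lay at bins that also held or neighboured a TSS of Irgm2 and are counted for both. The highest ratio of Irgm2 was 6.96, with 27 counts over 3.88 expected, at an intergenic bin 265 kb upstream.

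**Figure D2:**
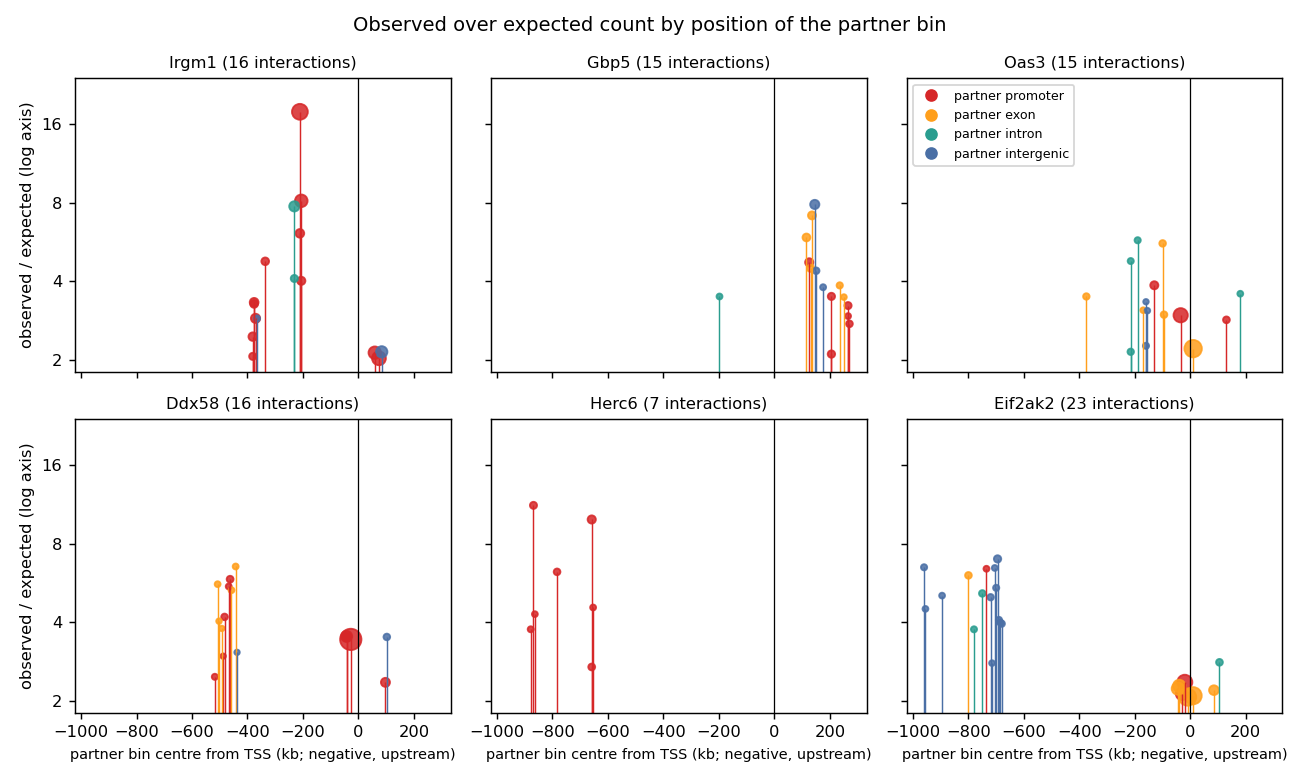
Ratio of observed to expected count (vertical log axis) against the distance of the partner bin centre from the TSS (kb, negative upstream of the gene) for 6 members, with points coloured by the class of the partner bin and sized by the observed count. Partners of Irgm1 peak at 17.9 at the Ifi47 bins, those of Gbp5 lie almost all downstream, and those of Herc6 all lie far upstream, with bin starts 655 to 875 kb away.

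Mx1, which encodes a dynamin-like GTPase active against influenza virus in mice that carry an intact copy, was listed at 0. So were Rsad2, the gene of viperin, which makes a chain-terminating nucleotide, and its neighbour Cmpk2, a nucleotide kinase gene. Rsad2 and Cmpk2 lie side by side and no promoter bin of either was in a listed pair. The Parp and Dtx3l genes encode ADP-ribosyltransferases and an E3 ligase partner. Parp9 and Dtx3l start next to each other and share the bin chr16:35935001-35940000, so their 2 interactions are the same. Both joined the promoter of Hcls1, a leukocyte signalling gene, at 995 kb with 37 counts over 6.36 expected (ratio 5.82) and at 1000 kb, the distance limit of the list, with 25 counts (ratio 2.45). Parp14 had 3 interactions, with its highest count and ratio at 160 counts over 59.8 expected (ratio 2.68) 45 kb upstream in an intergenic bin, and was joined to the promoter of Kpna1, a nuclear import receptor gene, with 148 counts (ratio 2.53).

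Among the sensors, Ddx58 (RIG-I, a sensor of viral RNA ends) had 16 interactions, Dhx58 (LGP2, a regulator of RIG-I and MDA5) had 7, Zbp1 (a sensor of Z-form nucleic acid) had 3 and Ifih1 (MDA5, a sensor of long double-stranded RNA) had 1. Ddx58 held the highest count of all members, 402 (interval 364 to 443) over 117 expected, a ratio of 3.44, to the promoter bin of Topors and Smim27 25 kb upstream. Its highest ratio was 6.55, with 15 counts over 2.29 expected, at an exon of Aptx, a DNA repair gene, 440 kb upstream. Of its 16 partners 11 lay 435 to 515 kb upstream, over Aptx, the chaperone gene Dnaja1 and Smu1, with counts from 10 to 26. The TSS of Ddx58 lay inside the promoter bin in 1 of the 16, since the gene starts next to a bin boundary.

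Dhx58 was joined to promoters in 6 of 7 cases. Its highest count was 236 over 88.7 expected (ratio 2.66) at Dnajc7 and Nkiras2, and its highest ratio was 3.17 at Cnp, with 108 counts. Kat2a, a histone acetyltransferase gene, had a TSS at or near the bin of 3 of these interactions. Ifih1 had 162 counts over 78.8 expected, a ratio of 2.06, to an exon of its neighbour Gca 40 kb upstream. The 3 interactions of Zbp1 reached 850 to 895 kb, to the promoters of Stx16 (26 counts, its highest), Aurka and Cstf1 (16 counts, its highest ratio, 3.54) and Npepl1.

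The loci outside these families held the members with the most interactions. Ifi35, which encodes an interferon-induced leucine zipper protein, had 31 in 17 clusters. Its highest count was 388 (interval 350 to 429) over 121 expected, a ratio of 3.20, 10 kb away in exons of its own gene and of Vat1. The promoter of Psme3 had 96 counts and that of Brca1 and Nbr1 had 77, with ratios of 2.60 and 2.40. The highest ratio of Ifi35 was 5.44, with 12 counts over 2.21 expected, in an intron of Stat3 525 kb upstream. It was also joined to the promoter of Stat5b with 14 counts (ratio 3.46) and to an exon bin of the member Dhx58 with 12 counts (ratio 4.77), at 755 kb, which is not at the promoter bins of Dhx58.

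Rtp4, a gene of receptor-transporter proteins with antiviral activity, had 27 interactions. Of these, 24 had an end at bins of an upstream start that also neighboured a TSS of Masp1, a complement protease gene, so they cannot be assigned to Rtp4 alone. This includes the interaction that joined the starts of Rtp4. The bins of its upstream and downstream starts were joined to each other with 90 counts over 40.1 expected (ratio 2.24). The highest count was 176 (ratio 2.17) in its own intron, and the highest ratio was 8.37, with 27 counts over 3.22 expected, at the intergenic bin chr16:23895001-23900000, 380 kb from the upstream start. The bin of the downstream start was joined to the same intergenic bin with 74 counts over 16.3 expected (ratio 4.55). Intergenic bins made up 19 of the partners of Rtp4.

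Eif2ak2, the gene of the kinase PKR that stops translation when it binds double-stranded RNA, had 23 interactions, all at the bin that holds its TSS. Its highest count was 259 over 125 expected (ratio 2.07), 10 kb away in an exon of Sult6b1, followed by its own gene (ratio 2.09). A second group of 15 partners lay 680 to 960 kb upstream, around Rmdn2, with counts of 13 to 32 and ratios of 2.79 to 7.00. The highest was 7.00, with 32 counts (interval 21.9 to 45.2) over 4.57 expected, at the intergenic bin chr17:79575001-79580000, 695 kb away.

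Adar, the gene of an adenosine deaminase that edits double-stranded RNA, had 18 interactions, 14 of them with promoters. It was joined to the promoter of Ube2q1 from 4 bins, with 389 counts over 161 expected (ratio 2.42) as the highest count and 188 over 45.3 (ratio 4.15) from the next bin. Its highest ratio was 4.69, with 12 counts, at exons of Creb3l4 and Jtb 525 kb away. Isg15, a ubiquitin-like modifier gene, had 10 interactions at a bin that also served AW011738. The highest count was 348 over 122 expected (ratio 2.85) at the promoter of Perm1 15 kb upstream, and the highest ratio was 5.38, with 72 counts, at that of B3galt6 and Sdf4 205 kb downstream. Agrn also had a TSS near an Isg15 bin.

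Bst2, the gene of tetherin, which holds budding virus at the cell surface, had 8 interactions. Its highest count was 394 (interval 356 to 435) over 146 expected, a ratio of 2.70, at the promoter of Mvb12a, an ESCRT subunit gene 10 kb away. The Bst2 bin of that pair lay within 2500 bp of the TSS and did not hold it. The TSS of Bst2 lay inside the promoter bin in 1 of the 8 interactions. Herc6, which encodes the ligase that attaches ISG15 in mice, had 7 interactions, all with promoters 655 to 875 kb upstream. Herc6 had no listed interaction closer than 655 kb. The highest count was 45 over 4.54 expected (ratio 9.92) at Nt5c3 and Vmn1r4. The highest ratio was 11.2, with 29 counts (interval 19.4 to 41.6) over 2.58 expected, at Avl9. Both came from the bin next to the one that holds the TSS of Herc6. From the bin with the TSS, the same bin of Nt5c3 and Vmn1r4 had 26 counts over 9.65 expected (ratio 2.70). The TSS lay inside the promoter bin in 2 of the 7 interactions.

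The remaining members had 1 to 3 interactions each. Samhd1, whose product depletes deoxynucleotides, had 3, with 153 counts (ratio 2.25) at the promoter of Rbl1 and its highest ratio, 6.02 with 12 counts, at Rprd1b and Tti1 895 kb away. Usp18, the gene of the protease that removes ISG15 and damps interferon signalling, had 2, with 165 counts over 39.0 expected (ratio 4.23) at the promoter of Pex26 and 23 counts at Bid. Isg20, an exonuclease gene, had 2, with 58 counts (ratio 2.36) at Mrpl46 and Mrps11 and 34 counts (ratio 2.63) at Abhd2. Xaf1, a pro-apoptotic gene, had 2, with 69 counts (ratio 2.68) at the promoter bin of Txndc17 and its highest ratio, 2.94, at Cyb5d2 and Zzef1. Ifi44 had 1, with 10 counts (interval 4.80 to 18.4) over 3.18 expected, in an intron of Gipc2 400 kb away.

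Over the 38 members, the 5 highest counts were those of Ddx58 with 402, Bst2 with 394, Adar with 389, Ifi35 with 388 and Isg15 with 348, all at 10 to 40 kb and with ratios of 2.42 to 3.44. The 5 highest ratios were those of Irgm1 with 17.9, Herc6 with 11.2 and 9.92, Gbp7 with 8.53 and Rtp4 with 8.37, all at 125 kb or more. In these groups the bins of Ddx58, Bst2, Herc6, Gbp7 and Rtp4 neighboured the TSS and did not hold it. No interaction was in both of these groups of 5, although the highest ratio, that of Irgm1, came with 215 counts. Member interactions had a median count of 26 (8 to 402), against 31 at all protein-coding promoters, and a median ratio of 3.16, against 3.03. Their median distance was 215 kb (quartiles 105 and 412.5 kb), against 190 kb (85 and 380 kb). Of the member interactions 44 (19.0%) spanned 500 kb or more, against 16.7% at all promoters, and 71 (30.6%) had a ratio of 4 or more, against 24.5%.

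The class of bin at the other end differed more. Each interaction gives 1 end for each of its bins that is a promoter bin, and the member promoters had 235 such ends. The partner bin was itself a promoter bin for 115 of them (48.9%, interval 42.6 to 55.3%), against 28.5% of the 213262 ends of all protein-coding promoters. Exonic bins took 17.9%, against 25.9%, intronic bins 8.09%, against 17.5%, and intergenic bins 25.1%, against 28.1%. The interval of the members thus lay above the value of all promoters, but the ends share bins and clusters and are not independent. Pairs were tested only where at least 1 bin held an H3K4me3 peak, and the part of this rule in the share was not tested. A control bin, placed equally far from the member promoter but on its opposite side, was a promoter bin for 23.4% of ends (18.4 to 29.2%), against 18.3% for all promoters. The partner was a promoter bin for 28 of 51 member ends under 100 kb (54.9%, against 27.2% for all promoters), 22 of 54 from 100 to 200 kb (40.7%, against 29.2%), 43 of 86 from 200 to 500 kb (against 28.6%) and 22 of 44 beyond (against 29.8%). Counted per member, the median share with a promoter partner was 68.3% over the 32 members with an interaction. Over the 14587 protein-coding genes with an interaction it was 35.3%. The share was over 50% in 20 of the members (62.5%, against 33.6% of all genes), 100% in 12 (37.5%, against 17.6%) and 0 in 3 (9.38%, against 11.6%). Of the 12 members at 100%, 11 had 3 interactions or fewer.

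**Figure D3:**
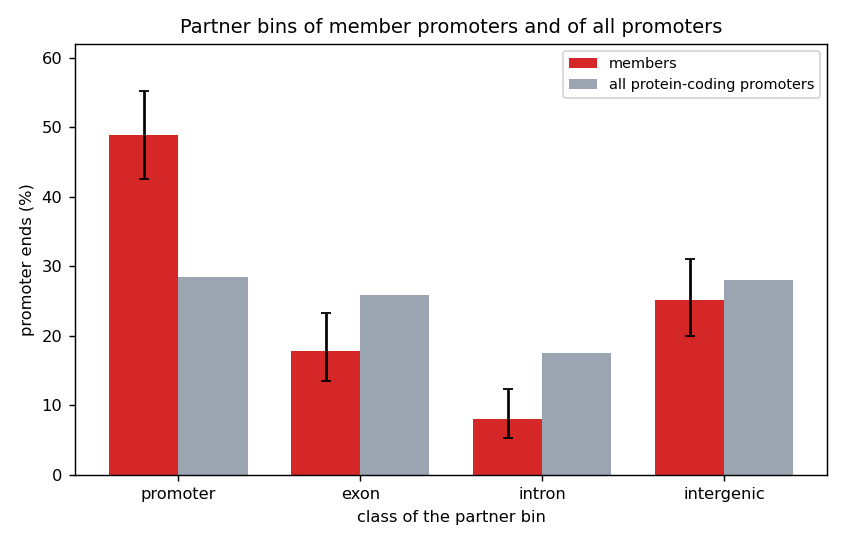
Share of promoter ends (%) by the class of the partner bin, for the 235 ends of member promoters (red, with 95% Wilson intervals) and the 213262 ends of all protein-coding promoters (grey). Promoter partners make up 48.9% of the member ends and 28.5% of all ends.

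Whether the partner bins of the members held the ISRE letters depended on the form searched. Of 206 distinct partner bins 102 (49.5%, interval 42.8 to 56.3%) held at least 1 match, against 52.2% of the 107278 partner bins of all protein-coding promoters. The motif is short for a 5-kb bin, and a stricter form, with CT after the last half-site, was found in 16 member partner bins (7.77%, interval 4.84 to 12.2%), against 4.05% of all partner bins. A form of 3 spaced half-sites was found in 7 (3.40%, interval 1.66 to 6.85%), against 2.78%. The partner bins include promoter bins of members, among them those of Gbp2 and Oas1a, whose printed promoters hold the form with CT. Partner bins also adjoin in clusters and are not independent.

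Interactions that joined the promoters of 2 interferon-stimulated genes were counted next. Of 17 pairs of members with promoter bins 10 to 1000 kb apart, 2 had a listed interaction (11.8%), Gbp5 with Gbp2 and Oas3 with Oas1a, against 8.00% of 371474 pairs of protein-coding genes in that range. Both were among the 3 member pairs 100 to 200 kb apart, where 14.9% of all pairs had one, and none was among the 13 member pairs under 100 kb, where 17.1% of all pairs had one. Of 34 pairs of a member and another interferon-stimulated gene, 2 had any (5.88%), Irgm1 with Ifi47 through 4 interactions and Oas3 with Oas1c through 1. Among 78 pairs of other interferon-stimulated genes 6 had an interaction (7.69%), and 3 further pairs with bins 5 kb apart (Psmb8 with Psmb9, Tap1 with Psmb8 and Tgtp2 with Ifi47) had one but lie outside that range. In both joins of 2 members 1 of the bins neighboured the TSS and did not hold it, and neither was counted where the TSS had to lie inside the bin.

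The genes that carry the interferon signal had more listed interactions than the genes it induces. The 21 interferon signalling genes examined, which are receptors, JAK kinases, STATs, IRFs and their inhibitors, all had interactions, with a median of 25 (quartiles 19 and 42), against 2 in the members. The gap was smaller under other settings, with medians of 3 in the signalling genes and 1 in the members for ratios of at least 4, and of 4 and 1 with 1 interaction per cluster. The signalling genes with the most were Irf2 with 67, Jak2 with 59 and Socs1, an inhibitor of JAK kinases, with 56, and the fewest were 7 at Pias1 and 9 at Irf3. Of them 15 (71.4%) had 20 or more. The 10 analysed genes that act upstream of interferon production had a median of 17.5, led by the adaptors Mavs with 52 and Myd88 with 48. A wider list of 70 other interferon-stimulated genes had a median of 1 (quartiles 0 and 7.75), and 47 of them (67.1%) had an interaction, against 84.2% of the members and 70.4% of all genes. It was led by Psmb8 with 50 and by Tap1 and Psmb9 with 49 each, neighbours in the antigen-processing region.

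**Figure D4:**
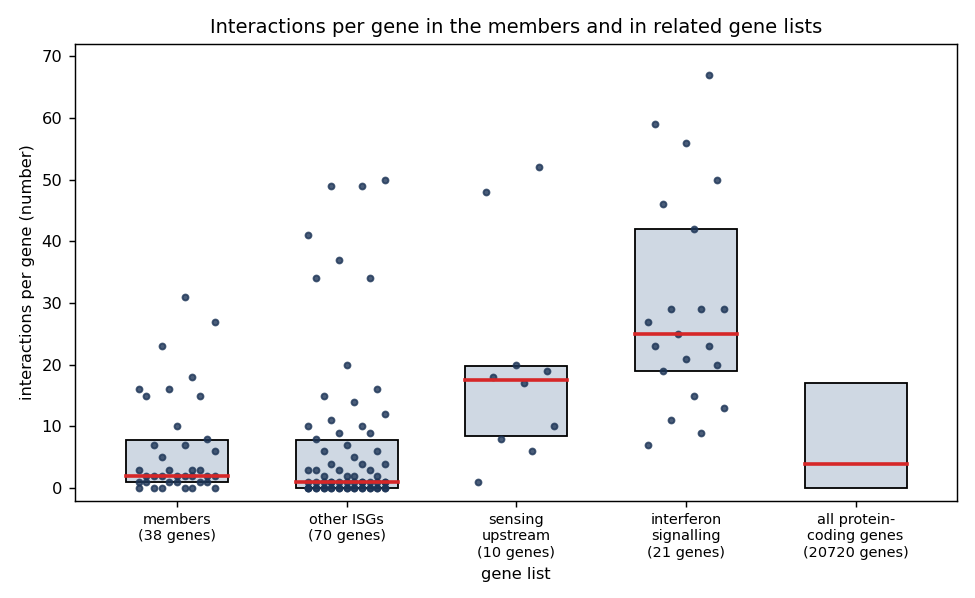
Interactions per gene (vertical axis) in the 38 members, 70 other interferon-stimulated genes (ISGs), 10 genes upstream of interferon production and 21 interferon signalling genes, with a point per gene, and in all 20720 protein-coding genes, where the quartiles alone are drawn. Red lines are medians (2, 1, 17.5, 25 and 4) and boxes span the quartiles.

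Promoters rich in the dinucleotide CpG usually carry H3K4me3, and those of the members were poor in it. The ratio of observed to expected CpG within 500 bp of the outermost TSS had a median of 0.27 in the members, against 0.70 in the signalling genes and 0.59 in all genes. This was not particular to the members, with medians of 0.28 in the 12 macrophage markers and 0.21 in the 70 other interferon-stimulated genes. These lists had medians of 17 and 1 interactions per gene. The CpG ratio was below 0.4 in 23 of 38 members (60.5%), against 37.6% of all genes and 80% of the other interferon-stimulated genes. These 23 members had a median of 2 interactions, and 18 of them had at least 1. Of the 7796 protein-coding genes below 0.4, 47.1% had at least 1 and the median was 0. From 0.4 to 0.6, 11 of 12 members had an interaction, with a median of 2.5, against 75.9% of 2809 genes, with a median of 5. The other 3 members lay between 0.6 and 0.8 and had a median of 3, against 10 for the 5509 genes there, and no member lay at 0.8 or above. The part of CpG content and of H3K4me3 level in these numbers was not tested.

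**Figure D5:**
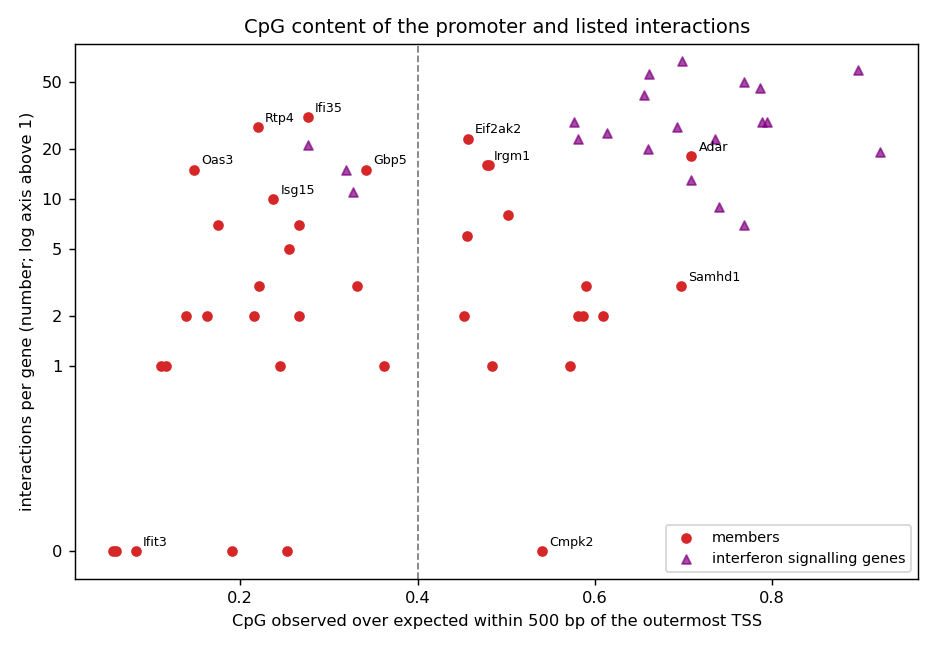
Interactions per gene (vertical axis, linear to 1 and logarithmic above) against the ratio of observed to expected CpG within 500 bp of the outermost TSS, for the members (red circles) and the interferon signalling genes (purple triangles), with a dashed line at 0.4. Most members lie left of the line and most signalling genes right of it, and Ifi35, Rtp4, Oas3 and Gbp5 are members left of it with 15 or more interactions.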

How the data were processed

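H3K4me3 HiChIP of 4 BMDM samples (2 IL-4, 2 basal) was analysed as 1 deposited list, which the authors had pooled over all samples, so the depth of each sample is unknown. Bowtie2, bedtools and the mm10 build are named in the submitters' processing notes. By the study's methods, MAPS was run at 5000 bp with H3K4me3 ChIP-seq peaks as anchors. The deposited list holds the 19 autosomes. The observed counts are read pairs per bin pair and were used as deposited, unrounded. The expected counts are those of the authors' model. The FDR is an adjusted p-value of the authors. The deposited cluster sizes are counts of bin pairs, and the −log10 p-value summed over each cluster, also deposited by the authors, was not used.

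Interactions were assigned by TSSs of GENCODE M21 (basic, protein-coding), with a width of 2500 bp. Distances are between bin starts. Partner bins were classed as promoter, exon, intron or intergenic, in that order. Counts of interactions, shares and medians are descriptions, set beside all protein-coding genes, with no test. Motifs were searched in RefSeq promoters and in the GRCm38.p6 sequence, and repeats as 75-base windows every 10 bases that occur more than once.

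The members and the 9 gene lists (147 entries) were chosen with earlier results of these data known. The measures of CpG, repeats, gene density, mirrored bins, all gene pairs and promoter partners per gene were added after the data were seen. By the rule for naming genes, every member is given with its number, with its highest count and ratio, except 1 interaction of Bst2 that is not reported here. The assignment of interactions was tested on simulated data. Alternatives were stricter FDR, count and ratio limits, 1 interaction per cluster, no clusters of 1 bin pair, other promoter widths, the outermost TSS and other ISRE forms. Promoter bins with a TSS of 1 gene were an alternative chosen after seeing the data. Python 3.11.15, numpy 2.4.6, pandas 2.3.3, scipy 1.17.1, numba 0.67.0 and matplotlib 3.10.9 were used.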

Additional observations from a re-analysis of the deposited data

How the results depend on the processing

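No paired analysis was possible because the list is pooled over IL-4 and basal samples and all replicates, and for the same reason no replicate could be left out. With an FDR under 1e-06, 115 member interactions were left and the median per member was 1. With ratios of at least 4, there were 71 interactions and a median of 1, and 21 of 38 members had any, against 52.2% of all genes. At this limit 36.1% of ends had a promoter partner (22.9% at all promoters). There was 1 join of 2 members, and 59.1% of partner bins held an ISRE (53.1% at all promoters). With 1 interaction per cluster, there were 72 interactions, a median of 1 and 1 join, and without clusters of 1 bin pair 1 join. With the TSS inside the bin, there were 137 interactions, 25.5% of ends with a promoter partner (13.7% at all promoters) and 0 joins, and with the TSS within 5000 bp a median of 4, 61.0% (39.5% at all promoters) and 4 joins. As given above, 3 half-sites gave 3.40% and the form with CT gave 7.77% of partner bins. The other 33 values stayed within 1.5 times the main value or within its interval. With promoter bins that served 1 gene, chosen after seeing the data, 191 interactions were left. Of the 38 members 27 had any, against 57.2% of all genes. The median was 2, against 1 for all genes, so the order of the medians turned round. With ratios of at least 4, with an FDR under 1e-06 and with 1 interaction per cluster both medians were 1.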
